A study of Homo sapiens with 8 samples.

Results

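miR-142 is a single microRNA (miRNA) hairpin that gives rise to a pair of mature miRNAs, miR-142-5p from its 5′ arm and miR-142-3p from its 3′ arm. Both arms were followed through small RNA sequencing libraries of colorectal carcinoma cells grown either as a flat monolayer (2D) or as multicellular spheroids (MCS). They are listed as hsa-miR-142-5p and hsa-miR-142-3p and make up 2 of the 1780 miRNAs in the count table, and both were detected in each of the 8 libraries. The pair was selected on an earlier result of these data, in which miR-142-5p had an unadjusted p under 0.05 between MCS and 2D in both cell lines, and miR-142-3p was taken as the other arm of that hairpin. The difference between MCS and 2D is therefore given below as a description, with no test.

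DLD1 and HT29 are established human colorectal adenocarcinoma lines. All 4 groups were grown for 6 days with serum, and each group had 2 replicates that the labels call biological. The 2D groups started from 35000 DLD1 cells or 100000 HT29 cells per flask, whereas the MCS groups started from 7000 DLD1 cells or 3500 HT29 cells per agarose-coated round-bottom well, where the cells cannot attach and gather into a ball. DLD1 cells were kept in RPMI-1640 and sequenced with version V3 of the kit, and HT29 cells were kept in DMEM and sequenced with version V2, so line, medium and kit cannot be told apart. Each group is a culture of 1 line in which only carcinoma cells were seeded, so it models neither the blood cells nor the stroma of a tumor, and p-values measure only the spread between these cultures.

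miRNAs are short RNAs that are cut from a hairpin precursor and guide the silencing complex to messenger RNAs, chiefly through pairing of the seed, bases 2 to 8. Either arm of a hairpin can be loaded, and most hairpins favour one of them. miR-142 is best known as a miRNA of the blood cell lineages, where it is abundant in lymphoid and myeloid cells, and in solid tissue it is commonly read as a trace of leukocytes.

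The sequences below, from the RefSeq miRNA table (GRCh38.p14), show that the arms carry different seeds. Capitals mark the mature arms in the hairpin and the seed in each mature miRNA.
MIR142 hairpin: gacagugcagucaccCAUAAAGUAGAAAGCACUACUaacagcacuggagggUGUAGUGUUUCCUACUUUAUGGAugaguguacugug
miR-142-5p: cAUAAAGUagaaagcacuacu
miR-142-3p: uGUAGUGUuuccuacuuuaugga
The hairpin of 87 bases matched the minus strand of GRCh37 at chr17:56408593-56408679, with miR-142-5p at chr17:56408644-56408664 and miR-142-3p at chr17:56408606-56408628. It lies wholly within the exon of the long non-coding RNA MIR142HG (chr17:56408240-56409884, minus strand), and within the bounds of TSPOAP1-AS1 on the opposite strand, outside its exons. miR-142-5p and the reverse complement of miR-142-3p differ at 3 of 21 positions, and 19 bases of miR-142-5p pair with miR-142-3p in the predicted fold. Whether the counting used strand is not given in the sources used here.

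The seed of miR-142-5p, AUAAAGU, is shared with 1 other miRNA among the 2370 mature miRNAs of the table, printed here to show how far the likeness goes beyond the seed.
miR-5590-3p: aAUAAAGUucauguauggcaa
It had 6 counts, all in 1 of the 8 libraries, against 9746 counts of miR-142-5p over the 8 libraries. The seed of miR-142-3p, GUAGUGU, was found in no other miRNA of the table. As far as the table lists miRNAs, counts that carried either seed were thus nearly all those of miR-142 itself.

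Library totals ranged from 10495634 to 26211524 miRNA counts. The HT29 libraries of replicate 1 stood apart from those of replicate 2, since miR-10a-5p alone took 47.3% (2D) and 38.5% (MCS) of the counts in replicate 1 and 10.6% (2D) and 6.57% (MCS) in replicate 2. In DLD1 it took 15.2% to 19.0%. Levels are accordingly given in CPM, counts scaled to a common library size, after upper quartile scaling within each line, a scaling that does not follow the most abundant miRNA, and on library totals alone where the scaling matters. The epithelial miRNAs of the miR-200 and miR-192/194/215 families, 8 in all, summed to at least 72894 CPM in every library, most of it miR-200b-3p, miR-200c-3p and, in HT29, miR-192-5p. The lowest of the 8 was miR-215-5p in DLD1, at 66.9 to 94.5 CPM.

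miR-142 was a low-abundance miRNA in both lines. The 2 arms together made up between 0.00181% and 0.0344% of the miRNA counts of a library. miR-142-5p held rank 167 to 276 in DLD1 and rank 137 to 225 in HT29, among 1061 to 1438 miRNAs with a count per library. miR-142-3p held rank 209 to 327 in DLD1 and rank 135 to 284 in HT29. The counts behind these levels were sufficient in each library, the smallest being 61 counts of miR-142-3p in HT29 2D replicate 1.

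In DLD1 cells, miR-142-5p was counted 407 and 639 times in 2D and 1598 and 1794 times in MCS. After scaling, these were 23.2 and 21.5 CPM in 2D and 85.4 and 118 CPM in MCS. Both MCS libraries lay well above both 2D libraries, and the replicates were 1.08-fold apart in 2D and 1.38-fold apart in MCS. The mean level was 22.3 ± 1.22 CPM in 2D and 101 ± 22.7 CPM in MCS (SD, n = 2 each), a log2 fold change of 2.18 (SE 0.30), or 4.54-fold.

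The 3p arm in DLD1 was counted 494 and 329 times in 2D and 996 and 863 times in MCS, equal to 28.2 and 11.1 CPM against 53.2 and 56.5 CPM. Again both MCS libraries were higher, but the 2D replicates were 2.55-fold apart. The means were 19.6 ± 12.1 and 54.9 ± 2.35 CPM (SD, n = 2 each), the log2 fold change was 1.49 (SE 0.32), or 2.81-fold, and it became 2.18 when 2D replicate 1, the higher of that pair, was left out.

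In HT29 cells, miR-142-5p was counted 129 and 1518 times in 2D and 784 and 2877 times in MCS. The raw counts overlapped between cultures, as did the library sizes. After scaling, the values were 23.5 and 34.9 CPM in 2D and 98.4 and 108 CPM in MCS. On this scale, which is set within each line and does not compare the lines, the cultures were apart. The means were 29.2 ± 8.03 and 103 ± 6.53 CPM (SD, n = 2 each). The log2 fold change was 1.82 (SE 0.50), or 3.52-fold. On library totals alone miR-142-5p was at 12.3 and 57.9 CPM in 2D and at 73 and 167 CPM in MCS, so that the MCS libraries were still the higher ones.

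miR-142-3p in HT29 was the least settled of these values. It was counted 61 and 1127 times in 2D and 226 and 3035 times in MCS, which is 11.1 and 25.9 CPM against 28.4 and 114 CPM after scaling. MCS replicate 1 was barely above 2D replicate 2, and the MCS replicates were 4-fold apart. On library totals alone the cultures overlapped, at 5.81 and 43.0 CPM in 2D and 21 and 177 CPM in MCS. The means were 18.5 ± 10.4 and 71 ± 60.2 CPM (SD, n = 2 each), the log2 fold change was 1.93 (SE 0.88), or 3.82-fold, and it was 0.58 without MCS replicate 2.

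**Figure D1:**
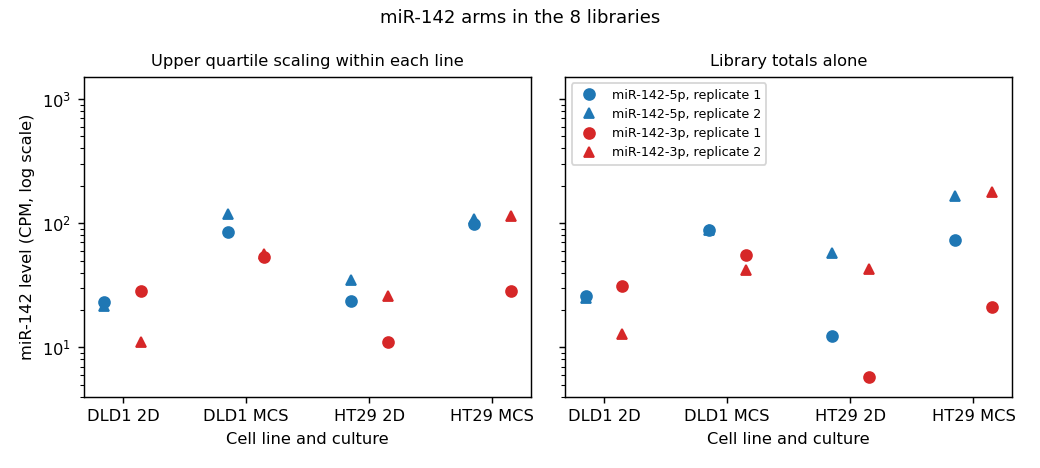
Level of miR-142-5p (blue) and miR-142-3p (red) in each library, in CPM on a log axis, by line and culture, with upper quartile scaling within each line (left) and library totals alone (right); circles are replicate 1 and triangles replicate 2. On the left both MCS libraries lie above both 2D libraries for each arm in each line, whereas on the right the HT29 cultures overlap for miR-142-3p.

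Compared within replicate numbers, the ratio of MCS to 2D was above 1 in each case. In DLD1 it was 3.68 and 5.47 for miR-142-5p, and 1.89 and 5.11 for miR-142-3p. In HT29 it was 4.18 and 3.09 for miR-142-5p, and 2.55 and 4.38 for miR-142-3p.

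The spread between replicates set the background of each line, with a biological coefficient of variation of 0.193 in DLD1 and 0.521 in HT29. In DLD1, 143 of the 346 miRNAs tested, or 41.3%, passed a fold of 1.5 and an adjusted p under 0.05 (quasi-likelihood test in edgeR, p-values adjusted by the Benjamini-Hochberg method), and both MCS libraries lay above both 2D libraries for 45.4% of the miRNAs. Of the 143, 103 were higher and 40 lower in MCS, a split that became 60 and 83 on library totals, 76 and 62 by TMM, 67 and 67 with totals without miR-10a-5p, and 49 and 93 with the upper quartile of the tested miRNAs alone, which moved the median of all miRNAs by -0.46. In HT29, 0 of the 301 miRNAs tested, or 0%, passed, 12 had an unadjusted p under 0.05, edgeR's exact test called 5, DESeq2 called 12, and both MCS libraries lay above both 2D libraries for 17.9%. Against this background, in DLD1 11 miRNAs had a larger log2 fold change than miR-142-5p and 33 a larger one than miR-142-3p. In HT29 6 had a larger one than miR-142-5p and 5 a larger one than miR-142-3p. The median log2 fold change of all miRNAs tested was 0.23 in DLD1 and 0.03 in HT29. As the pair was chosen by this contrast, nothing is read from these positions.

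**Figure D2:**
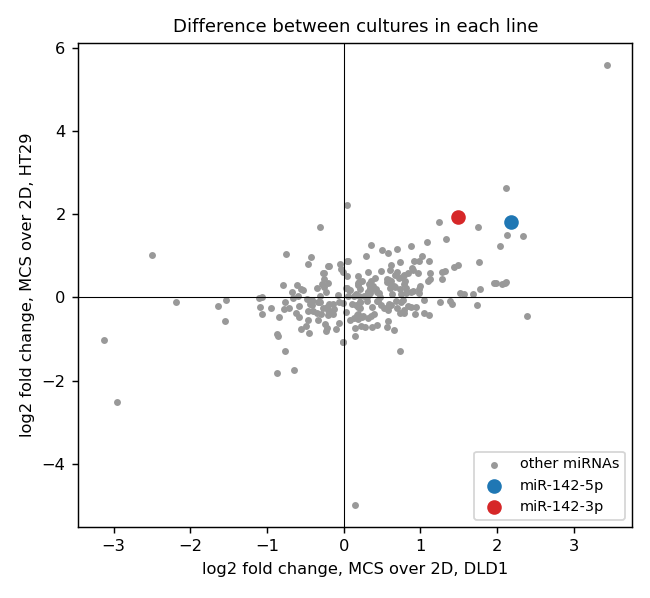
Log2 fold change of MCS over 2D in DLD1 (horizontal) and HT29 (vertical) for 250 miRNAs whose mean reached 10 CPM in both lines; each grey point is a miRNA. miR-142-5p lies at 2.18 and 1.82 and miR-142-3p at 1.49 and 1.93, at the upper right of the cloud. The pair was chosen by this contrast, so nothing is read from this position.

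The arm ratio does not depend on how libraries are scaled. miR-142-5p was the more abundant arm in 6 of the 8 libraries, with a share that did not exceed 77.6%. In DLD1 its share of the miR-142 counts was 45.2% (95% Wilson interval 41.9% to 48.4%) and 66.0% (63.0% to 68.9%) in 2D. In DLD1 MCS it was 61.6% (59.7% to 63.5%) and 67.5% (65.7% to 69.3%). DLD1 2D replicate 1 was thus the only DLD1 library in which the 3p arm led. The intervals cover counting error only.

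In HT29 the 5p share was 67.9% (61.0% to 74.1%) and 57.4% (55.5% to 59.3%) in 2D, and 77.6% (75.0% to 80.1%) and 48.7% (47.4% to 49.9%) in MCS. The highest and the lowest share of the line were the replicates of 1 culture. The cultures therefore overlapped in both lines. On the log2 scale the ratio of 5p to 3p was 0.34 ± 0.87 in 2D and 0.87 ± 0.26 in MCS in DLD1, and 0.76 ± 0.46 and 0.86 ± 1.32 in HT29 (SD, n = 2 each). The difference of 0.53 in DLD1 and 0.10 in HT29 was smaller than the SD of the 2D replicates in each line and, in HT29, than that of the MCS replicates. In DLD1 it was larger than the SD of the MCS replicates. With 2 against 2 libraries the smallest two-sided exact permutation p is 0.3333.

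**Figure D3:**
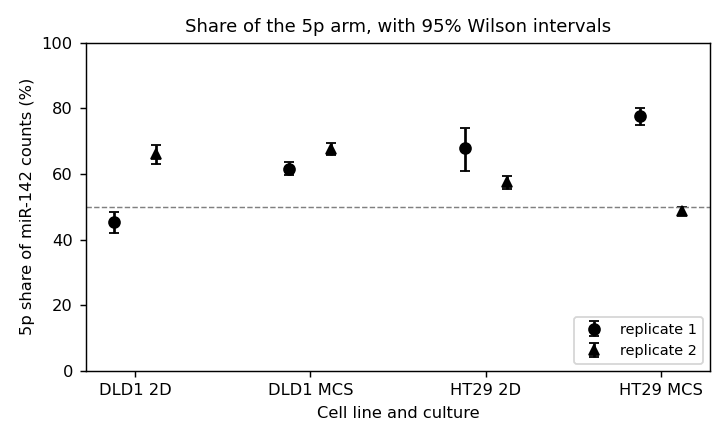
Share of miR-142-5p in all miR-142 counts (percent, axis from 0 to 100) in each library, with 95% Wilson intervals; circles are replicate 1 and triangles replicate 2, and the dashed line marks equal arms. The shares run from 45.2% to 77.6%, and 6 of 8 lie above the line.

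Among hairpins with both arms at a mean of at least 10 CPM, 84 in DLD1 and 75 in HT29, miR-142 was one of the more balanced. The size of its mean log2 arm ratio was 0.60 in DLD1 and 0.80 in HT29, against medians of 3.70 and 4.06 over all such hairpins, and 9 hairpins in each line were closer to equal arms. Its leading arm differed between libraries of 1 line, which was so for 6 hairpins in DLD1 and 10 in HT29, miR-142 included. The larger gap between replicates in DLD1, 1.24 on the log2 scale, was exceeded by only 2 hairpins, against a median gap of 0.42. In HT29 the corresponding gap of 1.87 was exceeded by 25 hairpins, the median being 1.37. The change of the ratio between cultures was not large for a hairpin, since 35 hairpins in DLD1 and 65 in HT29 had a larger one.

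**Figure D4:**
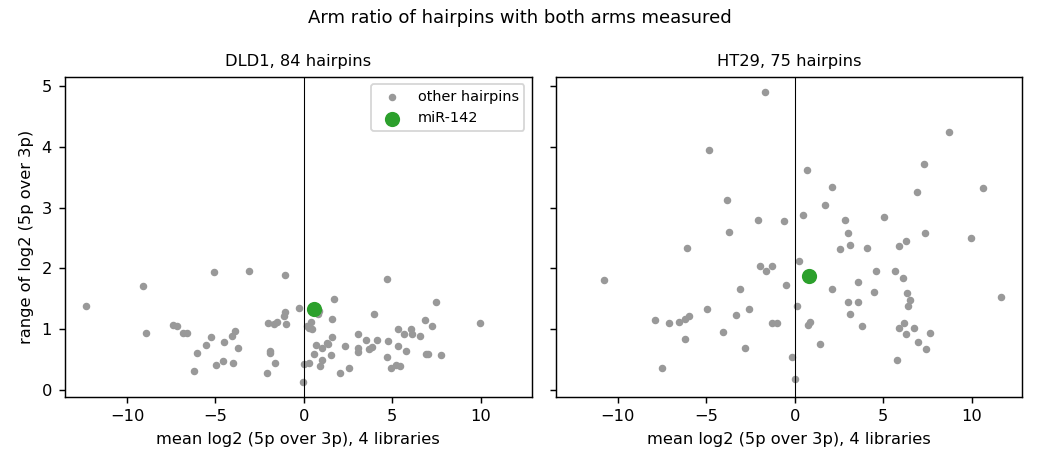
Mean log2 ratio of the 5p to the 3p arm over the 4 libraries of a line (horizontal) and its range over those libraries (vertical) for 84 hairpins in DLD1 and 75 in HT29; grey points are other hairpins. miR-142 (green) lies near 0 on the horizontal axis in both lines, with a range of 1.33 in DLD1 and 1.87 in HT29.

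The levels of the 4 groups were then put on a common scale, with upper quartile factors over the 8 libraries. In order, miR-142-5p was at 17.5 and 17 CPM in DLD1 2D, 30.9 and 46.3 CPM in HT29 2D, 68.8 and 85.0 CPM in DLD1 MCS, and 128 and 136 CPM in HT29 MCS. No neighbours in this order overlapped on this scale. On library totals alone the lines overlapped within each culture, at 25.7 and 25.1 CPM in DLD1 2D against 12.3 and 57.9 CPM in HT29 2D, and at 88.4 and 87.7 CPM in DLD1 MCS against 73 and 167 CPM in HT29 MCS. miR-142-3p followed the same order of means, at 21.3 and 8.77 CPM, 14.6 and 34.4 CPM, 42.9 and 40.9 CPM, and 36.9 and 143 CPM. There the lines overlapped within each culture.

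HT29 was compared with DLD1 in each culture, a contrast that was not used to choose the pair. In 2D, miR-142-5p was higher in HT29 by 1.17 on the log2 scale (SE 0.35, 2.24-fold, adjusted p = 0.0226, edgeR's quasi-likelihood test), one of 208 of 354 miRNAs called, or 58.8%. In MCS it was higher by 0.78 (SE 0.34, 1.71-fold, adjusted p = 0.0856), where 57.9% of the 354 miRNAs were called. miR-142-3p passed in neither culture, with 0.72 (SE 0.74, adjusted p = 0.434) in 2D and 1.11 (SE 0.74, adjusted p = 0.234) in MCS. Most miRNAs tested were thus called, and 107 of the 354 had a larger log2 difference than miR-142-5p in 2D.

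That call also rested on the scaling. With library totals alone, miR-142-5p differed in 2D by 0.47 (adjusted p = 0.637), and with the upper quartile taken over the tested miRNAs by 0.47 (adjusted p = 0.294). These scalings moved the median log2 difference of all miRNAs by -0.86 and -0.72, so the value of the 5p arm moved along with the median. The call was also lost in 5 of the 8 fits that left out 1 library.

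Other miRNAs of blood cells give the context for the low level of miR-142. Of 15 listed as such, 13 had rows, and both arms of miR-223, the leading myeloid miRNA, were not analysed here. In DLD1, 4 of the 13 had no count in any library, and 11 of the 13 did not reach a mean of 10 CPM, the highest of them at 2.15 CPM in a library. In HT29, 1 had no count and 10 did not reach that mean, the highest of them at 4.36 CPM. The miRNAs of the red cell lineage, miR-144, miR-451a and miR-486, did not exceed 2.15 CPM in any library. Both miR-142 arms, from 5.81 to 177 CPM, were thus above most blood-cell miRNAs in every library, together with miR-146a-5p and miR-155-5p, and in HT29 miR-150-5p.

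miR-146a-5p, a miRNA that restrains inflammatory signalling and is also made by epithelial cells, was at 47.3 and 57.5 CPM in DLD1 2D and at 191 and 262 CPM in DLD1 MCS. It rose by 2.11 on the log2 scale (SE 0.26, adjusted p = 5.24e-14, edgeR), and of 2 blood-cell miRNAs tested in DLD1 it was the 1 that passed. Its value was 1.64 to 2.14 over 15 other settings, and it missed the threshold only with all 8 libraries in 1 fit (adjusted p = 0.0641). In HT29 it was at 38.7 and 12.5 CPM in 2D and 38.8 and 26.8 CPM in MCS, a difference of 0.37 (adjusted p = 0.977, edgeR).

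miR-155-5p, a miRNA of activated lymphocytes, was at 45.3 and 54.5 CPM in DLD1 2D and 59.7 and 81.4 CPM in DLD1 MCS, a log2 difference of 0.50 (adjusted p = 0.149, edgeR). In HT29 it was at 15 and 12.9 CPM in 2D and 35.3 and 25.7 CPM in MCS, a difference of 1.13 (adjusted p = 0.975, edgeR). After scaling within each line the MCS libraries were the higher ones in both lines, without passing the test. Both MCS libraries lay above both 2D libraries for 45.4% of all miRNAs in DLD1 and 17.9% in HT29. On library totals alone the DLD1 cultures overlapped, at 50.2 and 63.6 CPM in 2D and 61.8 and 60.7 CPM in MCS (log2 difference 0.11). With the replicate number as a block the difference in HT29 was called (1.11, adjusted p = 0.0128, edgeR).

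miR-150-5p, a miRNA of mature lymphocytes, differed between the lines, with which kit and medium go as well. It had 0 counts in each of the 4 DLD1 libraries, and 66 and 297 counts in HT29 2D and 411 and 1094 counts in HT29 MCS. Against the limit of 3 counts over the DLD1 group, it was at least 136-fold higher in HT29 2D and at least 692-fold higher in HT29 MCS, on library totals. As it reached the mean of 10 CPM only through the HT29 libraries, no test between the lines is given. Within HT29 it was at 12 and 6.83 CPM in 2D and at 51.6 and 40.9 CPM in MCS. The log2 difference was 2.31, and 2.23 with DESeq2 and 2.35 with the replicate number as a block. The 2D libraries were under 10 CPM on average. As it thus reached that mean only through the MCS libraries, no test between the cultures is given either.

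Over the list, then, 1 of 2 miRNAs tested in DLD1 was called between cultures, beside 41.3% of all miRNAs tested. In HT29 neither miR-146a-5p nor miR-155-5p was called, beside 0%, and with the replicate block miR-155-5p was. The log2 fold changes of miR-155-5p and miR-146a-5p were 0.50 and 2.11 in DLD1, beside a median of 0.23 over all miRNAs. In HT29 they were 1.13 and 0.37, beside a median of 0.03. Between the lines, miR-155-5p in 2D (-1.08, adjusted p = 0.0317, edgeR) and miR-146a-5p in MCS (-2.03, adjusted p = 0.016, edgeR) were lower in HT29, where 58.8% and 57.9% of all miRNAs were called. The lower level of miR-155-5p was not called in 8 of 17 other settings, among them the fits without either DLD1 2D replicate (adjusted p = 0.0633 and 0.167, edgeR). That of miR-146a-5p was not called in 2 of 18, the fits without DLD1 MCS replicate 2 (adjusted p = 0.0743, edgeR) and without HT29 MCS replicate 2 (adjusted p = 0.0681, edgeR). miR-150-5p was thus detected in 1 line only at this depth, whereas miR-142 was present in both. The other arm, miR-150-3p, was counted in both lines. It had 6 and 5 counts in DLD1 2D, 0 and 5 in DLD1 MCS, 6 and 52 in HT29 2D and 20 and 75 in HT29 MCS.

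The 13 blood-cell miRNAs summed to 107 to 134 CPM in DLD1 2D and 259 to 262 CPM in DLD1 MCS, and to 37.7 to 58.3 CPM in HT29 2D and 97.1 to 153 CPM in HT29 MCS. This sum was higher in MCS in both lines, as miR-142 was, and its part in the result was not tested. A few members carried the difference between cultures, in DLD1 chiefly miR-146a-5p, with a mean of 59.8 CPM in 2D and 197 CPM in MCS. In HT29 it was chiefly miR-150-5p, with 8.81 and 51 CPM. There miR-146a-5p had 20.5 and 35.2 CPM, and miR-155-5p 14.6 and 33 CPM. Others were lower in MCS, such as miR-486-5p in DLD1 with 1.66 and 0.562 CPM. Only carcinoma cells were seeded, so the sum is not read as a share of blood cells. In bulk RNA of this kind, fewer carcinoma cells that carry a miRNA and less of it per cell cannot be told apart.

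**Figure D5:**
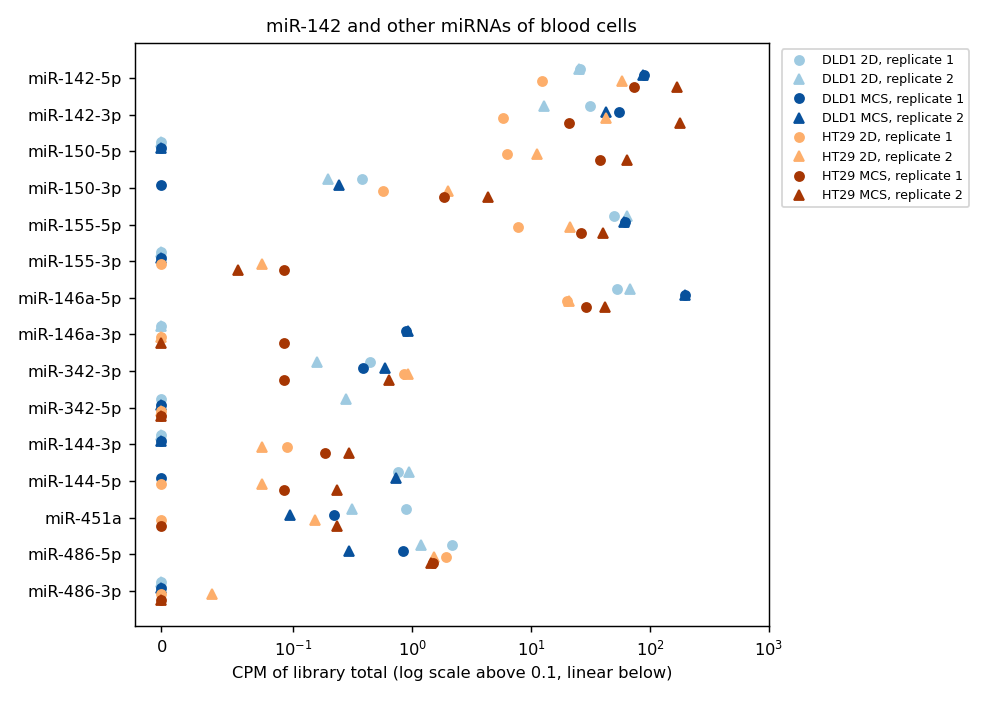
Level of both miR-142 arms and of the 13 other blood-cell miRNAs with a row, in CPM of the library total (log scale above 0.1, linear below), in each of the 8 libraries; color marks line and culture, circles are replicate 1 and triangles replicate 2. miR-142, miR-146a-5p and miR-155-5p lie between 5.81 and 198 CPM, the red cell miRNAs at or under 2.15 CPM, and miR-150-5p at 0 in DLD1.

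Stromal miRNAs, which mark fibroblasts, smooth muscle and endothelium, were counted for comparison. The 9 with rows, of 10 listed, summed to 102 to 116 CPM in DLD1 2D and 118 to 120 CPM in DLD1 MCS, most of it miR-126-3p, and to 10.7 to 30.4 CPM and 17.4 to 31.8 CPM in the HT29 cultures. In DLD1 1 of 2 tested was called, beside 41.3% of all miRNAs, and in HT29 0 of 1, beside 0%. The call was miR-126-5p with 0.98 (SE 0.34, adjusted p = 0.0113, edgeR), lost in 7 of 15 other settings. The other arm, miR-126-3p, was not called in DLD1 (0.48, SE 0.27, adjusted p = 0.14, edgeR). Of the 8 epithelial miRNAs, 6 rose in DLD1 MCS, where 29.8% of all miRNAs tested were called higher, and 0 were called in HT29, where 0% were. Their median log2 fold changes were 1.15 and 0.74, beside 0.23 and 0.03 over all miRNAs. Among the 6, miR-194-5p of the intestinal epithelium rose by 2.13 (SE 0.25, adjusted p = 5.28e-15, edgeR). miR-215-5p, also of the intestinal epithelium, was not called (0.05, adjusted p = 0.886, edgeR), nor was miR-429 (0.56, adjusted p = 0.0566, edgeR). The 6 calls are given on the main scaling only. Upper quartiles of the tested miRNAs alone moved the median of all miRNAs in DLD1 by -0.46.

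The miRNAs annotated within 1.5 Mb of the hairpin were examined next. AC023992.1, AC100832.1 and AC007114.1, annotated as miRNA genes 125, 658 and 1328 kb away, were not analysed here. The nearest, MIR4736 at 4.66 kb, was not analysed here, and miR-4729 and both arms of miR-3614 had at most 32 counts in a library. The MIR454 and MIR301A hairpins lie 806 and 820 kb away on the same strand. In DLD1 MCS miR-301a-5p fell by 0.87 on the log2 scale (adjusted p = 0.0145, edgeR, not called in 2 of 15 other settings), and miR-301a-3p (-0.30), miR-454-3p (-0.21) and miR-454-5p (-0.47) did not pass. In HT29 none of the 4 passed, with values of -0.87, 1.70, 0.34 and -0.34 in the same order. As 0% of all miRNAs passed in HT29, the lack of a call there says nothing about the neighbours. Both MCS libraries lay above both 2D libraries for miR-301a-3p (278 and 126 against 17.5 and 106 CPM) and miR-454-3p in HT29, as for 17.9% of all miRNAs. In DLD1, where 29.8% of all miRNAs tested were called higher in MCS, no neighbour tested was.

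Finally, the miRNAs whose levels across the libraries were most like those of each arm were listed. Likeness was Pearson's r of log2 levels (CPM + 1) over the 8 libraries after each line's own mean had been taken off, among 250 miRNAs. It is a description, as all points share libraries and scaling factors. The levels also carry the difference between MCS and 2D by which the pair was chosen. For miR-142-5p the closest were miR-27a-3p (r = 0.99), miR-130b-3p (0.98), miR-181b-5p (0.97), miR-3074-5p (0.96) and the hypoxia-responsive miR-210-3p (0.95), and the median over all was 0.24. miR-210-3p was the one of similar size, with log2 fold changes of 2.11 in DLD1 and 2.63 in HT29, whereas those of miR-27a-3p were 0.92 and 0.88.

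For miR-142-3p the closest were miR-31-5p (r = 0.96), miR-582-5p (0.96), miR-29b-3p (0.95), miR-194-5p (0.91) and miR-24-2-5p (0.91), with a median of 0.11. No miRNA was among the closest 5 of both arms. The arms of miR-142 correlated with each other at 0.83, which placed miR-142-3p at rank 30 for miR-142-5p and miR-142-5p at rank 21 for miR-142-3p. Neither arm was thus among the 5 miRNAs closest to the other.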

How the data were processed

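Small RNA libraries of DLD1 and HT29 cells in 2D and MCS culture were analysed from the raw read counts per mature miRNA that the authors deposited, 1 table per library and 1 for all. The 12572 values shared by these tables were compared and 0 differed. Per the labels, reads were processed with CASAVA 1.8.3, cutadapt 1.11 and Bowtie2 2.1.0 on hg19. Treatment of reads that match several miRNAs is not given in the sources used here. Entries naming no miRNA (at most 0.00988% of a library) were left out.

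Counts were fitted with edgeR 4.0.16 (R 4.3.3), quasi-likelihood, with upper quartile factors over all miRNAs with a count, and those with a mean of 10 CPM or more were tested. A call was a change of 1.5-fold or more with p under 0.05 after Benjamini-Hochberg adjustment. MCS was compared with 2D in each line alone, and the lines in 1 fit of 8 libraries. The SE of a log2 fold change is its size divided by the square root of F. Arms of hairpins were compared with 0.5 added to counts. Folding used RNAfold 2.7.2. Code was tested on simulated data. Alternatives were other scalings, filters, the exact test, DESeq2 1.42.0, a replicate block and leaving out each library.

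The members and the lists of blood-cell, stromal and epithelial miRNAs were chosen with earlier results of these data known. Named were the pair, list members past the filter (others by range), miRNAs sharing a seed, hairpins within 1.5 Mb, and the 5 miRNAs most like each arm.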

Additional observations from a re-analysis of the deposited data

How the results depend on the processing

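The higher level in MCS kept its direction for both arms in both lines under every alternative fitted. For miR-142-5p in DLD1 the log2 fold change of 2.18 became 1.79 with library totals alone, 1.85 with totals without miR-10a-5p, 1.71 with upper quartiles of the tested miRNAs alone and 1.94 with DESeq2, and ran from 1.87 to 2.23 when 1 library was left out, the lone sample then being assumed to vary like the other group. Leaving out 1 library gave 0.84 to 2.18 for miR-142-3p in DLD1, 1.56 to 2.04 for miR-142-5p in HT29 and 0.58 (without MCS replicate 2) to 2.59 for miR-142-3p in HT29. A filter of 10 CPM in every library left out miR-142-3p of HT29, and of the line contrasts.

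For HT29 against DLD1 in 2D, miR-142-5p lost its call with library totals alone (0.47), totals without miR-10a-5p (0.55), upper quartiles of the tested miRNAs alone (0.47), no filter (1.17, adjusted p = 0.0737, edgeR), and in 5 of 8 fits that left out 1 library (0.82 to 1.42 over the 8). Those fits lacked DLD1 2D replicate 1 (adjusted p = 0.119, edgeR), DLD1 2D replicate 2 (0.132), DLD1 MCS replicate 1 (0.0536), DLD1 MCS replicate 2 (0.0527) or HT29 2D replicate 2 (0.127). In MCS it passed with DESeq2 size factors (1.04, adjusted p = 0.05, edgeR) and DESeq2 (1.19, adjusted p = 0.00193). Leaving out 1 library gave -0.05 to 1.46 for miR-142-3p in 2D and -0.19 to 1.80 in MCS, reversed without that culture's HT29 replicate 2.

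The change of the log2 arm ratio was -0.09 to 1.15 in DLD1 (reversed without 2D replicate 1) and -0.83 to 1.04 in HT29 with 1 library left out, reversed without 2D replicate 2 (-0.22) and without MCS replicate 1 (-0.83), and -0.30 in HT29 from summed counts. Blood-cell calls between cultures numbered 2 in DLD1 with no filter. Leaving aside miR-150-5p, miR-155-5p was called in HT29 only with the replicate block (1.11, adjusted p = 0.0128, edgeR). Between lines, miR-155-5p in 2D lost its call by TMM and no filter, and 10 CPM in every library left it out. Leaving out 1 library gave it -1.28 to -0.90, and miR-146a-5p in MCS -2.31 to -1.78. Both library totals added miR-146a-5p in 2D, and no filter miR-150-3p in both cultures. The difference of miR-146a-5p in 2D was -0.28 with all libraries and -1.30 without HT29 2D replicate 1. The causes were not tested.

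Replicate numbers are shared by the labels only as numbers. The replicate differences of 2D and MCS correlated at 0.32 over 346 miRNAs in DLD1 and 0.79 over 301 in HT29. The replicate block gave miR-142-5p 2.17 in DLD1 and 1.84 in HT29, and miR-142-3p 1.63 and 1.77, and moved the calls over all miRNAs from 143 to 139 in DLD1 and from 0 to 47 in HT29. Calls in DLD1 numbered 27 with all libraries in 1 fit and 92 without 2D replicate 2, and those in HT29 15 with no filter, 5 with the exact test and 12 with DESeq2. Between lines no filter gave 409 and 388 calls, and 10 CPM in every library 94 and 89, in 2D and MCS. Between lines the reported splits of 103 higher and 105 lower calls in 2D and 98 and 107 in MCS became 44 and 125, and 47 and 93, with library totals alone, 62 and 137, and 73 and 126, without miR-10a-5p, and in 2D 71 and 149 with upper quartiles of the tested miRNAs alone.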
